A study of Mus musculus with 16 samples.

Results

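Zinc-handling genes were followed across 16 RNA-sequencing libraries of mouse endometrial epithelial organoids, cultures grown from the cell layer that lines the uterus. They were 6 genes of the 23306 in the deposited table: the metallothionein genes Mt1 and Mt2, the zinc sensor gene Mtf1, the zinc exporter gene Slc30a1 and the zinc importer genes Slc39a10 and Slc39a14. The set was chosen from the hormone rise of Mt1, so the hormone values of these 6 genes are given as a description, without a test. All 6 were in the table, and all 6 passed the filter on low values.

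The control organoids came from mice with floxed Tgfbr2 (Tgfbr2 FF), and the conditional knockout (cKO) organoids came from mice that also carried PR-Cre (Tgfbr2 PRcre+), a recombinase driven by the progesterone receptor gene. All groups carried the floxed allele and Cre was present in the cKO groups alone, so deletion of Tgfbr2 and presence of Cre cannot be told apart. Treatment began after 2 days of culture and lasted 6 days. It was vehicle throughout, or 2 days of the estrogen estradiol (E2, 10 nM) followed by 4 days in which the progestin MPA (medroxyprogesterone acetate, 1 µM) was added to the E2. The groups were control vehicle (M1 to M4), cKO vehicle (M5 to M8), control E2/MPA (M9 to M12) and cKO E2/MPA (M13 to M16), with 4 libraries each. Whether libraries of one group stem from different animals is not in the labels, and a p-value therefore measures the spread among these cultures, possibly a technical one.

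Metallothioneins are small cysteine-rich proteins that bind zinc and copper ions. When free zinc rises in a cell, the transcription factor MTF1 binds short metal response elements before its target genes, among them Mt1, Mt2 and Slc30a1, and raises their transcription. Metallothionein genes are also textbook targets of glucocorticoid receptor and of inflammatory signals. Zinc enters the cytosol through ZIP proteins (the Slc39 family) and leaves it through ZnT proteins (the Slc30 family). In the human uterus, metallothionein is known as a protein of the secretory endometrium.

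Mt1, Mt2 and Mt3 lie next to each other on mouse chromosome 8 and are transcribed in the same direction. The bases before their starts are shown because metal response elements there are the feature that defines zinc control of the family. The RefSeq promoter table (GRCm38.p6) held 5 of the 6 genes, with no entry for Slc39a14. In the following sequences, each of the 250 bases before the RefSeq start, capitals mark the metal response element core, searched as TGCACNC or TGCGCNC on both strands. The windows lie at chr8:94178839-94179088 (Mt1, plus strand), chr8:94172368-94172617 (Mt2, plus strand) and chr1:191906531-191906780 (Slc30a1, plus strand).
Mt1: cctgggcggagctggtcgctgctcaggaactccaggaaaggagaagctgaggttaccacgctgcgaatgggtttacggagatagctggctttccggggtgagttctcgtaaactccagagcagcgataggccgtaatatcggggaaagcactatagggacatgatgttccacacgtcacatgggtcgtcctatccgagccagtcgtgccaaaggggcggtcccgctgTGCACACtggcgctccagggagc
Mt2: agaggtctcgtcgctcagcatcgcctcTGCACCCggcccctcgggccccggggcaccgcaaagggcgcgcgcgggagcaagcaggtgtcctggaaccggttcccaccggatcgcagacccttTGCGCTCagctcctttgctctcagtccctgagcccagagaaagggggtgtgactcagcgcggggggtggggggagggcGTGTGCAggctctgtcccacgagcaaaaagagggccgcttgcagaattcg
Slc30a1: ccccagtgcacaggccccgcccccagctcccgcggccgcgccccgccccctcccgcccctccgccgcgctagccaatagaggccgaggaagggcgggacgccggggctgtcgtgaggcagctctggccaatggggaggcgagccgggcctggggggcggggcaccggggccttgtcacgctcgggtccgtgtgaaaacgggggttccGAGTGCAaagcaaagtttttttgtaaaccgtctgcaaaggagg

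Mt2 held 3 cores, Mt1 held 1 and Slc30a1 held 1, against none in the window of Mt3 (chr8:94152357-94152606), of Mtf1 or of either start of Slc39a10. Of all 32851 windows of this length in the table, 21.4% held at least 1 core and 1.26% at least 3. The annotated transcripts of the metallothionein genes (GENCODE M21, same build) start at several places, and the last start lay 152 bases after the RefSeq start in Mt1, 242 in Mt2 and 139 in Mt3. A second window, the 250 bases before that last start, was chosen after the first was seen. It held 5 cores in Mt1, 4 in Mt2 and 3 in Mt3. Among the windows before RefSeq starts, 0.0822% held 5 or more, 0.304% held 4 or more and 1.26% held 3 or more. These cores are shown with 4 bases on each side, read on the gene's strand, with positions counted back from the last start, and capitals that end in GCA are matches on the other strand.
Mt1, bases 175 to 169: gctgTGCACACtggc
Mt1, bases 150 to 144: gctcTGCACTCcgcc
Mt1, bases 132 to 126: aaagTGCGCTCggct
Mt1, bases 68 to 62: tgctGGGTGCAaacc
Mt1, bases 54 to 48: ccttTGCGCCCggac
Mt2, bases 238 to 232: ggtcGTGCGCAggcc
Mt2, bases 184 to 178: gggcGTGTGCAggcg
Mt2, bases 165 to 159: gggcGCGTGCAtggt
Mt2, bases 131 to 125: ctttTGCGCTCgacc
Mt3, bases 112 to 106: gcagTGCACACacac
Mt3, bases 85 to 79: ctgtGCGTGCAtagg
Mt3, bases 53 to 47: tgctTGCGCGCcccc

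The steroid receptor hexamer TGTTCT was absent from both windows of Mt1, Mt2 and Mt3 and present in 16.1% of all windows. A full palindrome, AGAACA and TGTTCT spaced 3 bases apart, occurred in 0.00913% of all windows and in none of these. Bases outside these windows were not searched, so steroid receptor sites farther from the starts would have been missed. The antioxidant response element core TGACNNNGC was found once in the first window of Mt2, once in that of Slc30a1 and once in the second window of Mt1, against 10.2% of all windows with at least 1. A match describes these letters alone, and the deposited data hold no measurement of binding.

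**Figure D1:**
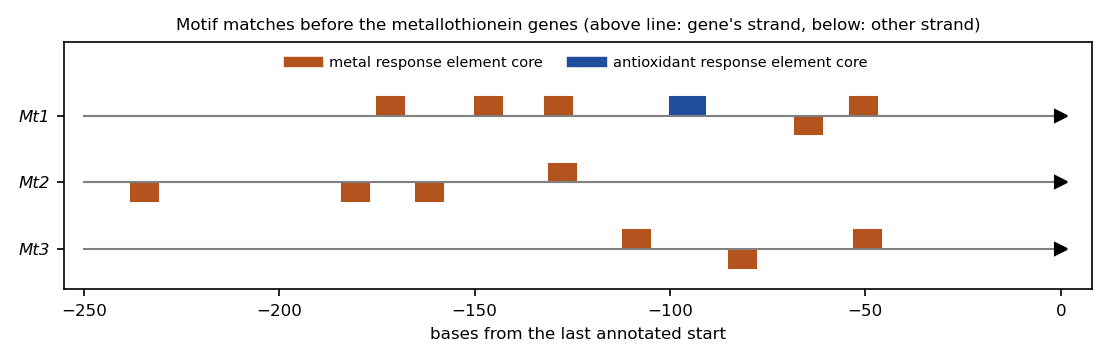
Motif matches in the 250 bases before the last annotated start of Mt1, Mt2 and Mt3. The x axis gives the distance from that start in bases, boxes above a line are matches on the gene's strand and boxes below it on the other strand. Mt1 has 5 metal response element cores, Mt2 has 4 and Mt3 has 3.

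Recovered depth was 14372111 to 20016836 reads per library. Tgfbr2, the deleted gene, was read in every group, and its cKO mean was 71.9% of control under vehicle (log2 difference -0.46, adjusted p = 0.833) and 80.8% under E2/MPA (-0.28, adjusted p = 0.690), neither past the test. The table does not resolve exons, so reads outside the floxed part are included. The epithelial markers Epcam, Cdh1, Krt8, Krt18, Krt19 and Foxa2 summed to 75293 to 132390 normalized counts per library, and none was at 0 in a group. The 10 stroma markers summed to 777 to 47871, and their mean log2 level was highest of each group in M4 (9.87), M8 (8.84), M12 (10.47) and M16 (9.96). M9 (8.93) lay above M8, and M1 was at 7.64. Leaving out M4, M8, M12 and M16 therefore keeps M9, a stroma-rich library. In these bulk libraries, fewer cells of a type and less RNA per cell cannot be told apart.

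Mt1 was the most abundant metallothionein transcript and its level was higher under E2/MPA in every library of both genotypes. Values are the authors' normalized read counts, meaning reads divided by a size factor per library. Under vehicle, Mt1 was at 1715, 3802, 2722 and 3160 in the control libraries M1 to M4 and at 1892, 2720, 2140 and 1780 in the cKO libraries M5 to M8. Under E2/MPA it was at 7850, 13645, 12725 and 11418 in control M9 to M12 and at 5416, 7304, 6524 and 6488 in cKO M13 to M16. Every hormone-treated library lay above every vehicle library, and every control E2/MPA library lay above every cKO E2/MPA library. The group means were 2850 ± 877 (SD, n = 4) and 11409 ± 2543 in control and 2133 ± 419 and 6433 ± 776 in cKO. The log2 difference on the log2(value + 1) scale was 2.03 (SE 0.22) in control, a 4.08-fold higher level, and 1.60 (SE 0.22) in cKO, a 3.04-fold higher level. The vehicle groups overlapped each other.

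Mt2, whose protein is nearly the same size and binds the same metals, had the same pattern as Mt1. Under vehicle it was at 152, 357, 159 and 358 in M1 to M4 and at 145, 242, 105 and 144 in M5 to M8. Under E2/MPA it was at 735, 1235, 1209 and 1288 in M9 to M12 and at 476, 706, 578 and 657 in M13 to M16. The order of the groups was that of Mt1, the E2/MPA groups did not overlap each other or the vehicle groups, and the vehicle groups overlapped each other. The log2 difference was 2.21 (SE 0.31) in control and 1.97 (SE 0.31) in cKO, 4.61-fold and 3.92-fold. Mt2 stood at 4.91% to 11.3% of Mt1 in the vehicle libraries and at 8.79% to 11.3% in the E2/MPA libraries, so the ratio of the pair overlapped between treatments.

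Per kilobase of annotated exon, Mt1 stood at 2287 ± 704 normalized counts in control vehicle and 9157 ± 2041 in control E2/MPA. Mt2 stood at 436 ± 199 and 1899 ± 437 on the same scale. The longest stretch of bases that their annotated transcripts share exactly was 20 bases, and 27 bases for Mt1 and Mt3. No source used here says how reads matching several genes were counted.

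Mt3, a family member best known from the brain and not among the 6 genes, rose in both genotypes. It was at 16.6, 56.4, 46.6 and 14.4 in M1 to M4 and at 14.6, 32.8, 20.3 and 15.9 in M5 to M8, from 13 to 57 reads each. Under E2/MPA it was at 314, 586, 492 and 144 in M9 to M12 and at 131, 124, 142 and 95.7 in M13 to M16. No E2/MPA library overlapped a vehicle library, and M12 and M16, the libraries richest in stroma markers, were the lowest of their groups. The limma log2 difference was 3.53 (SE 0.47, adjusted p = 0.00038) in control and 2.56 (SE 0.47, adjusted p = 0.00676) in cKO, 11.5-fold and 5.89-fold. Of all 16509 genes tested, 8.90% were called in control and 4.19% in cKO, where 5.39% and 2.71% were called as higher. The call held without any single library (adjusted p up to 0.00231 in control and 0.0254 in cKO). Mt3 stood at 0.456% to 1.71% of Mt1 under vehicle and at 1.26% to 4.29% under E2/MPA. Mt4, the epidermal family member, was not analysed here.

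**Figure D2:**
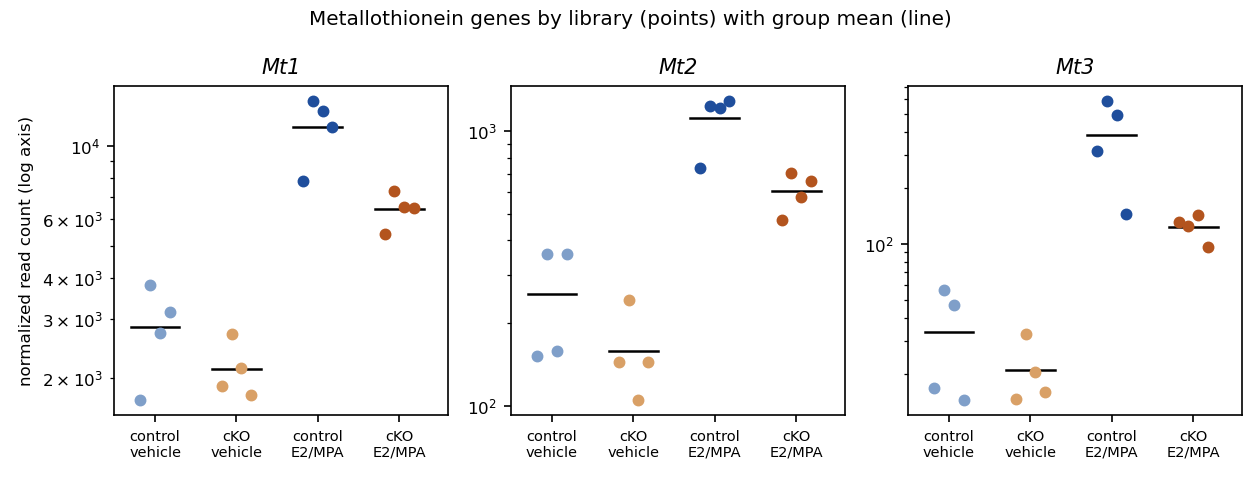
Normalized read counts of Mt1, Mt2 and Mt3 on a log axis, 1 point per library with a line at the group mean of 4. For all 3 genes the E2/MPA libraries lie above the vehicle libraries. The control E2/MPA libraries lie above the cKO E2/MPA libraries, for Mt3 by a narrow margin (144 in M12 and 142 in M15).

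Of the zinc importers among the 6 genes, Slc39a14 was higher and Slc39a10 lower under E2/MPA. Slc39a14 encodes ZIP14, a plasma membrane carrier of zinc, iron and manganese that is known as an acute-phase gene in liver. It was at 683, 1041, 659 and 769 in M1 to M4 and at 730, 1133, 557 and 795 in M5 to M8. Under E2/MPA it was at 2351, 3328, 3048 and 1991 in M9 to M12 and at 1656, 2509, 1627 and 1458 in M13 to M16. Every hormone library exceeded every vehicle library, while the control and cKO E2/MPA libraries overlapped through M14. The log2 difference was 1.76 (SE 0.23) in control and 1.19 (SE 0.23) in cKO, 3.38-fold and 2.28-fold.

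Slc39a10 encodes ZIP10, an importer whose transcript is known to fall when zinc is plentiful. It was at 928, 675, 729 and 933 in M1 to M4, at 903, 725, 819 and 960 in M5 to M8. Under E2/MPA it was at 634, 541, 517 and 728 in M9 to M12 and at 778, 674, 598 and 740 in M13 to M16. The hormone libraries overlapped the vehicle libraries in both genotypes. The stroma-rich M4, M8 and M12 were the highest of their groups, and M16 was not. The log2 difference was -0.43 (SE 0.14) in control and -0.29 (SE 0.14) in cKO.

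The exporter and the sensor overlapped between treatments in both genotypes. Slc30a1 encodes ZnT1, which moves zinc out of the cell across the plasma membrane and is, beside the metallothioneins, the best known MTF1 target. It was at 505, 586, 549 and 486 in M1 to M4 and at 550, 537, 498 and 662 in M9 to M12, ranges that overlap, with a log2 difference of 0.08 (SE 0.10). The value was -0.05 without M4, M8, M12 and M16. In cKO it was at 591, 721, 592 and 566 in M5 to M8 and at 753, 689, 790 and 744 in M13 to M16, with a log2 difference of 0.27 (SE 0.10), and M6 lay within the hormone range. Mtf1 itself lay between 426 and 509 (control) or 444 and 514 (cKO) under vehicle. Under E2/MPA it lay between 473 and 528 (control) or 475 and 543 (cKO), and its log2 difference was 0.11 and 0.10 (SE 0.08).

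**Figure D3:**
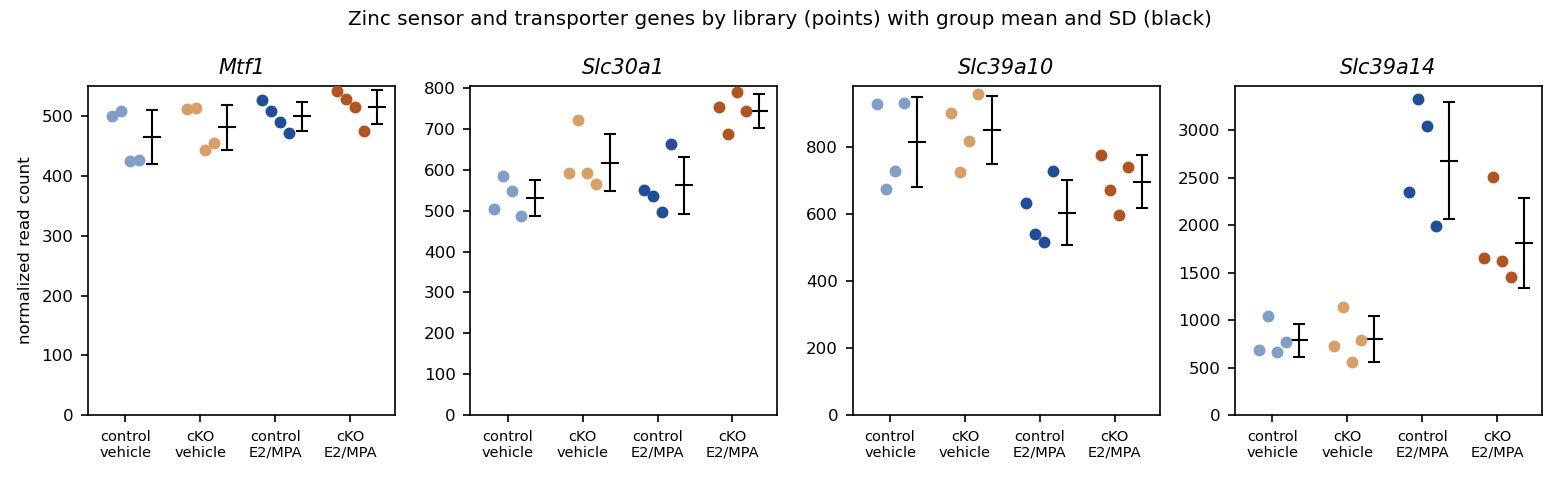
Normalized read counts of Mtf1, Slc30a1, Slc39a10 and Slc39a14 on linear axes from 0, 1 point per library with the group mean and SD of 4 in black. Slc39a14 is the one gene of these 4 whose E2/MPA libraries do not overlap the vehicle libraries of the same genotype.

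The hormone libraries thus separated from the vehicle libraries in 3 of the 6 genes in control (Mt1, Mt2, Slc39a14), where 12.1% of all tested genes separated in either direction. The same 3 of 6 separated in cKO, where 13.8% of all tested genes did. These counts rest on the contrast that chose the set. The median log2 difference of the 6 was 0.93 in control and 0.73 in cKO, beside -0.001 and -0.004 for all tested genes. Across the 29 alternative settings tried, the log2 difference of Mt1 stayed between 1.80 and 2.20 in control and between 1.52 and 1.73 in cKO, and that of Slc39a14 between 1.65 and 1.90 and between 1.02 and 1.37. The difference of Mt1 was 2.09 in control and 1.52 in cKO without M4, M8, M12 and M16.

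The genotype comparisons ask whether these levels differ between cKO and control libraries, where deletion of Tgfbr2 and presence of Cre cannot be told apart. They and the difference of the hormone effect share libraries with the contrast that chose Mt1. Under vehicle, limma called 0 of the 6 genes (0% of all tested genes were called), and edgeR and DESeq2 called 0. Slc30a1 was the 1 gene of the 6 with an unadjusted p under 0.05 (log2 difference 0.21, SE 0.10, adjusted p = 0.833). Of all 16509 tested genes, 984 had one. The differences of Mt1 (-0.38, 95% interval -0.86 to 0.10, adjusted p = 0.847) and Mt2 (-0.63, -1.30 to 0.04, adjusted p = 0.833) had intervals that include 0. In 0 of the 6 genes did the vehicle groups separate, against 3.01% of all tested genes.

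Under E2/MPA the metallothioneins were lower and Slc30a1 higher in cKO libraries, without passing the test over all genes. The cKO mean of Mt1 was 56.4% of the control mean (log2 difference -0.80, SE 0.22, 95% interval -1.28 to -0.33, adjusted p = 0.210). That of Mt2 was 54.1% (-0.87, SE 0.31, -1.53 to -0.20, adjusted p = 0.328). Slc30a1 was at 132% of control (0.41, SE 0.10, 0.20 to 0.62, adjusted p = 0.181). In these 3 genes all 4 cKO libraries lay outside the control range, against 6.17% of all tested genes. Mt3 had the same order, with a cKO mean at 32.1% of control (-1.46, SE 0.47, -2.46 to -0.46, adjusted p = 0.273). Its groups did not overlap, but by a narrow margin, with control M12 at 144 and cKO M15 at 142. Slc39a14 was at 67.6% of control (-0.57, SE 0.23, -1.06 to -0.08, adjusted p = 0.385), Slc39a10 at 115% (0.21, adjusted p = 0.614) and Mtf1 at 103% (0.04, adjusted p = 0.908).

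The limma fit thus called 0 of the 6 genes under E2/MPA, where it called 0.00606% of all tested genes. An unadjusted p under 0.05 was reached by 4 of the 6 (Mt1, Mt2, Slc30a1 and Slc39a14) and by 1794 of all 16509 tested genes. edgeR called 0 of the 6, and 1 of all tested genes. DESeq2 called 2 of the 6, Mt1 (adjusted p = 0.0242) and Slc30a1 (adjusted p = 0.0250), and 185 of all tested genes. With the mean stroma marker level as a covariate, limma called Mt1 (adjusted p = 0.0425) and Slc30a1 (adjusted p = 0.0355), and 570 of all tested genes. Mt3 passed in both of these settings as well (adjusted p = 0.0267 in DESeq2 and 0.0135 with the covariate). Without M4, M8, M12 and M16 the log2 difference of Mt1 was -0.80 and that of Slc30a1 0.49, with adjusted p = 0.233 and 0.0895.

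The hormone effect itself did not differ between the genotypes past the test in any of the 6 genes, and limma called 0% of all tested genes. The difference, cKO response minus control response, was -0.42 for Mt1 (SE 0.32, 95% interval -1.10 to 0.25), -0.24 for Mt2 (SE 0.44, -1.18 to 0.71), -0.57 for Slc39a14 (SE 0.33, -1.27 to 0.12) and 0.20 for Slc30a1 (SE 0.14, -0.10 to 0.49). It was 0.14 for Slc39a10 (SE 0.19) and -0.01 for Mtf1 (SE 0.12). The adjusted p was 1 in all 6, no unadjusted p was under 0.05, and edgeR and DESeq2 called 0 of the 6. Each of these intervals that is given includes 0. Among all 16509 tested genes, 309 had an unadjusted p under 0.05 for this difference.

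**Figure D4:**
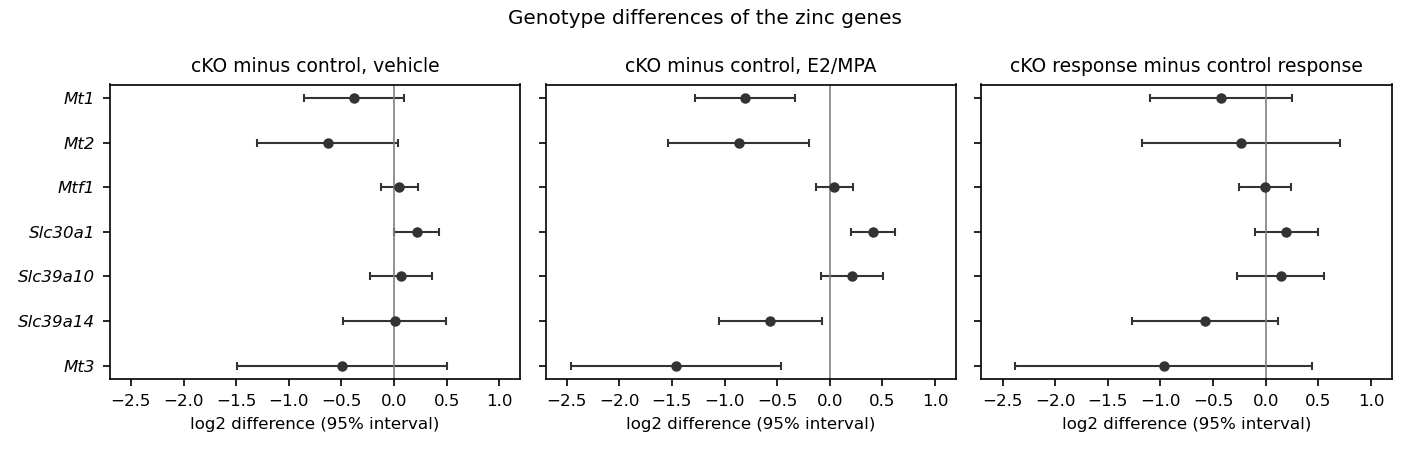
Log2 differences of the 6 genes and Mt3 on the log2(value + 1) scale with 95% intervals from limma, for cKO minus control under vehicle, for cKO minus control under E2/MPA and for the difference of the hormone effect. Under E2/MPA the intervals of Mt1, Mt2, Mt3 and Slc39a14 lie below 0 and that of Slc30a1 above it, before adjustment over all genes.

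Of the 11 other ZIP importers tested, 2 rose and 1 fell in control, and 1 rose and 0 fell in cKO. Among all tested genes 5.39% were called as higher and 3.51% as lower in control, and 2.71% and 1.48% in cKO. Slc39a4, the intestinal importer ZIP4 whose loss causes zinc deficiency, ranged from 4534 to 5921 in control vehicle and from 6568 to 9440 in control E2/MPA. It rose 1.45-fold in control (log2 difference 0.54, SE 0.12, adjusted p = 0.0149) and 1.54-fold in cKO (0.62, SE 0.12, adjusted p = 0.0110), and the control call was lost with only the 2 groups in the fit (adjusted p = 0.0796). Slc39a8, which encodes ZIP8, a close relative of ZIP14, ranged from 2156 to 9718 in control vehicle and from 11549 to 21060 in control E2/MPA. It rose 2.86-fold in control (1.52, SE 0.38, adjusted p = 0.0232), a call that was lost without M1, M9, M10 or M11 (adjusted p up to 0.0675). In cKO the value was 1.35 (SE 0.38, adjusted p = 0.0638), with no overlap between groups, and it passed without M4, M8, M12 and M16 (1.14, adjusted p = 0.0015). Slc39a13, which encodes the early secretory pathway carrier ZIP13, fell by 0.33 on the log2 scale in control (SE 0.08, adjusted p = 0.0220), a call lost without M1, M4, M9 or M11 (up to 0.0802), and was at -0.13 in cKO (adjusted p = 0.451). With only the 2 groups in the fit, the control calls of Slc39a8 (adjusted p = 0.120) and Slc39a13 (0.0607) were lost too, and Slc39a8 passed in cKO (0.0111), as it did with a block joining libraries 8 numbers apart (0.00311). Slc39a2 was at 1.43 in control (SE 0.46, adjusted p = 0.0694), without overlap between groups. In cKO it was at 1.31 (SE 0.46, adjusted p = 0.1335). DESeq2 called Slc39a2 in control. The block, the stroma covariate and the fit without M4, M8, M12 and M16 called it in both genotypes. Of all 16509 tested genes, the block called 4479 in control and 3098 in cKO, and the covariate 4480 and 3193.

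Per kilobase of all annotated exons, the most abundant importers in control vehicle were Slc39a4 (1647 ± 195) and Slc39a1 (1615 ± 72.7), which did not differ beyond their spread, and then Slc39a8 (882 ± 445). On the same scale Slc39a10 stood at 134 ± 21.9 and Slc39a14 at 74.7 ± 16.6. Under E2/MPA in control these 5 genes stood at 2402 ± 430, 1593 ± 37.0, 2235 ± 523, 99.3 ± 15.8 and 254 ± 58.4. The order depends on the length used. Per kilobase of the longest coding transcript, the control vehicle means were 1913 for Slc39a8, 1860 for Slc39a4, 1615 for Slc39a1, 160 for Slc39a14 and 148 for Slc39a10. On that scale Slc39a14 reached 544 under E2/MPA in control, against 1593 for Slc39a1, so its hormone level lay below those of Slc39a1, Slc39a4 and Slc39a8 with either length.

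None of the 5 other ZnT exporters tested was called in either hormone comparison by limma, edgeR or DESeq2, with 2 at an unadjusted p under 0.05 in control and 1 in cKO. Of all 16509 tested genes, 3942 in control and 3075 in cKO had an unadjusted p under 0.05 in limma. Slc30a9 had a log2 difference of 0.20 in control (adjusted p = 0.111) and 0.08 in cKO (adjusted p = 0.646). Slc30a7, a Golgi carrier, was at -0.02 (adjusted p = 0.932) and 0.21 (adjusted p = 0.174). With the stroma covariate, 2 exporters passed in each genotype. With a block joining libraries 8 numbers apart, a pairing that the labels do not give, Slc30a9 (adjusted p = 0.0114) and Slc30a4 passed in control and Slc30a7 in cKO (0.0211). The median log2 difference of the ZIP list was 0.17 in control and 0.20 in cKO, and that of the ZnT list 0.06 and 0.08.

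**Figure D5:**
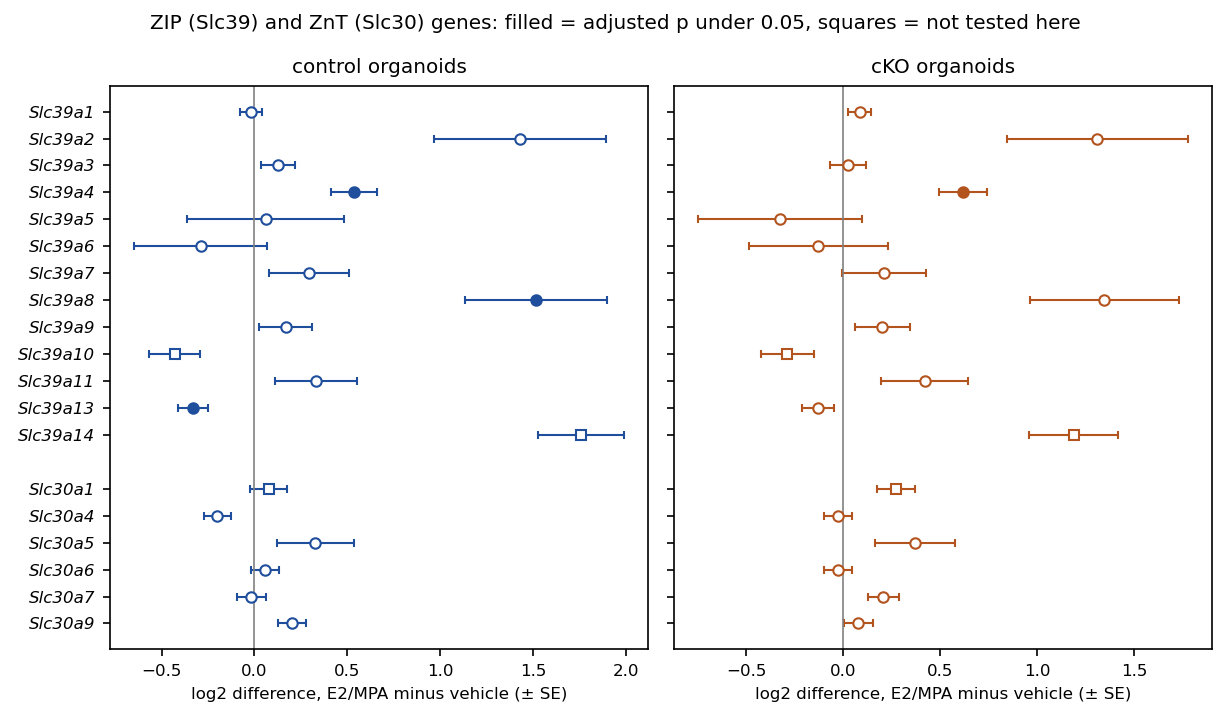
Log2 difference between E2/MPA and vehicle with its SE for the tested ZIP (Slc39) and ZnT (Slc30) genes in control and cKO organoids. Filled circles passed an adjusted p of 0.05, open circles did not, and squares are Slc39a10, Slc39a14 and Slc30a1, given without a test. The positive values above 1 belong to Slc39a2, Slc39a8 and Slc39a14, and no ZnT gene reaches 0.5.

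Of 6 other genes reported as MTF1 targets, limma on group means and edgeR called 0 in either genotype. In limma, 1 had an unadjusted p under 0.05 in each, and DESeq2 called 1 in control. With the stroma covariate, limma called Ndrg1 and Gclc as higher in both genotypes. In that setting it called 4480 of all tested genes in control and 3193 in cKO. An unadjusted limma p under 0.05 was reached by 3942 of all 16509 tested genes in control and 3075 in cKO. Ndrg1, a stress-responsive gene, was 1.24-fold and 1.27-fold higher (log2 difference 0.31 and 0.34, adjusted p = 0.0877 and 0.0948), and the iron exporter gene Slc40a1 was at -0.05 and 0.14 (adjusted p = 0.947 and 0.872). Among 9 copper genes, Atox1, a copper chaperone, rose 1.31-fold in control (0.39, adjusted p = 0.0143), a call lost without M1 (0.0538) and with only the 2 groups in the fit (0.0564), and was at 0.29 in cKO (adjusted p = 0.0849). The copper-zinc enzyme gene Sod1 was at 0.21 and 0.15 (adjusted p = 0.227 and 0.489) and the copper importer gene Slc31a1 at 0.29 and 0.25 (adjusted p = 0.0598 and 0.143). Of 8 iron genes limma, edgeR and DESeq2 called 0, with 1 and 2 at an unadjusted p under 0.05, and the ferritin genes Fth1 (0.38 and 0.66, adjusted p = 0.365 and 0.150) and Ftl1 (0.27 and 0.30, adjusted p = 0.239 and 0.241) did not pass. DESeq2 called 2 of the 9 copper genes in each genotype, with Atox1 in both and Slc31a1 in control. Of all tested genes, DESeq2 called 2175 in control and 1255 in cKO. The block joining libraries 8 numbers apart changed several of these calls. That block called 4479 of all 16509 tested genes in control and 3098 in cKO. With it, Ndrg1 passed in control (adjusted p = 0.00604) and cKO (0.00533), as did Slc31a1 (0.00164 and 0.00685). Sod1 passed in control alone (0.0318), and Atox1 (0.00708), Fth1 (0.0297) and Ftl1 (0.0403) passed in cKO.

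Of 9 targets of NRF2, the oxidative stress factor that also acts on metallothionein genes, 2 rose in control and 1 in cKO. Limma called 5.39% of all tested genes as higher in control and 2.71% in cKO. Other NRF2 targets went the other way without a call in the limma fit of group means. Slc7a11 was at -0.77 and -0.57 on the log2 scale (adjusted p = 0.0562 and 0.210), and Txnrd1 at -0.25 and -0.23 (adjusted p = 0.168 and 0.271). DESeq2 called Slc7a11 as lower in control, and the fit with only the 2 groups did so in cKO. The block called both genes as lower in each genotype. Srxn1, which repairs oxidised peroxiredoxins, rose 1.96-fold in control (adjusted p = 0.00318) and was at 1.40-fold in cKO (adjusted p = 0.132). With only the 2 groups in the fit, Srxn1 was not called in control (adjusted p = 0.0590) and was called in cKO (0.00903), and the block also called it in cKO (0.0101). Gclm, a subunit of the glutathione synthesis enzyme, rose 1.64-fold and 1.48-fold (adjusted p = 0.00745 and 0.0441), and the cKO call was lost when M5, M6, M7, M8, M13, M14, M15 or any of 4 control libraries (M1, M3, M9, M10) was left out (up to 0.138) and under TMM scaling (0.0508). That call was also lost without the filter on low values and with upper-quartile scaling or quantile normalization (up to 0.0710).

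Of 8 acute-phase and STAT3 genes, 4 rose in control and 3 in cKO, with a median log2 difference of 1.29 and 1.48. Of these 8, edgeR called 2 and 3. Among all tested genes, limma called 5.39% as higher in control and 2.71% in cKO. The log2 difference was positive in 7 of the 8 in each genotype, and Bcl3 was at -0.21 and -0.07 (limma adjusted p = 0.512 and 0.875). Cebpd, a transcription factor gene, rose by 1.26 and 1.14 on the log2 scale (adjusted p = 0.000465 and 0.00178). Steap4, a metalloreductase gene, rose 6.48-fold and 5.06-fold (adjusted p = 0.00528 and 0.0199), and its cKO call was lost without M5, M7 or M14 (up to 0.0721). Lcn2, the iron-scavenging lipocalin, rose 2.49-fold and 3.54-fold (adjusted p = 0.0359 and 0.0107), where leaving out any of 5 control libraries (M1, M4, M9, M10, M11) ended the control call (up to 0.110), as did edgeR (0.0618). The control call of Lcn2 was also lost without M4, M8, M12 and M16 together. Saa3, a serum amyloid gene, was called in control (7.06-fold, adjusted p = 0.0479), and 13 of the 16 single libraries ended that call when left out (up to 0.150). That call was also lost without the filter on low values and in edgeR (up to 0.0741). Saa3 was at 5.77-fold in cKO (adjusted p = 0.107), and passed there with the block (0.00331). With only the 2 groups in the fit, the control calls of Lcn2 (adjusted p = 0.162) and Saa3 (0.0637) were lost.

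Of 8 glucocorticoid receptor targets, which progestins are also known to raise, 5 rose in control and 5 in cKO. Among all tested genes, limma called 5.39% and 2.71% as higher. The log2 difference was positive in 6 of the 8 in each genotype. Sgk1 was at -0.03 and -0.16 (limma adjusted p = 0.9465 and 0.693), and Errfi1 at -0.15 and -0.10 (0.677 and 0.8365). Fkbp5, a receptor co-chaperone gene, rose 8.39-fold and 7.92-fold (adjusted p = 5.745e-05 and 0.000129), and Tsc22d3, the glucocorticoid-induced leucine zipper gene, 4.48-fold and 7.19-fold (adjusted p = 0.00024 and 4.789e-05). Sult1a1, a sulfotransferase gene, went from 9.81 to 93.1 in control and from 4.29 to 68.6 in cKO (adjusted p = 5.379e-05 and 2.548e-05). Zbtb16, a transcription factor gene, went from 0.282 to 66.8 in control and from 0 to 35.8 in cKO (adjusted p = 1.045e-06 and 4.748e-06). In the limma fit of group means, no list had a gene called in either genotype comparison or in the interaction. With the stroma covariate, limma called Errfi1 as higher in cKO under E2/MPA, beside the calls of Mt1, Mt3 and Slc30a1 given above.

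Apart from Mt3, the nearest neighbour of the Mt1 and Mt2 pair, the named genes on both sides had smaller hormone differences than Mt1 and Mt2. On the side of Mt3, Ogfod1, which encodes a ribosomal protein hydroxylase, rose 1.30-fold in control (adjusted p = 0.0135) and 1.26-fold in cKO (adjusted p = 0.0441). The control call was lost without M10 (0.0533). The cKO call was lost without any of 10 libraries (up to 0.124) and in edgeR (0.0521). It was also lost without the filter on low values and with TMM, upper-quartile or quantile scaling (up to 0.0866). The nearest gene on the other side, Nup93, which encodes a nuclear pore protein, rose 1.44-fold in control (adjusted p = 0.0256), a call lost without M2, M3, M9, M10 or M11 (up to 0.0700), and was at 1.23-fold in cKO (adjusted p = 0.256). Bbs2, Nudt21, Herpud1, Nlrc5 and Cpne2 were not called in either genotype by the 16-library fit. Their log2 differences ran from -0.37 (Nlrc5) to 0.71 (Herpud1) in control and from -0.95 (Nlrc5) to 0.75 (Herpud1) in cKO, with adjusted p from 0.0712 (Cpne2 in cKO) to 0.930 (Bbs2 in control). With only the 2 groups in the fit, the control calls of Ogfod1 (adjusted p = 0.0768) and Nup93 (0.0815) were lost, and Herpud1 (0.0144) and Cpne2 (0.0227) passed in cKO. With the block, Herpud1 passed in control (0.0201), and Bbs2, Nup93, Herpud1, Nlrc5 and Cpne2 passed in cKO (0.00788 to 0.0334). Slc12a3 was in the table but below the filter.

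The genes whose log2 levels followed Mt1 most closely over the 16 libraries were Ctps (Pearson r = 0.977), Lamtor3 (0.974), Adam15 (0.968), Cyb5r3 (0.968) and Fam189a2 (0.959), as a description over libraries that share 4 group means. Mean Ctps, which encodes CTP synthase, went with treatment from 1472 to 3375 in control and from 1210 to 2572 in cKO. Mean Fam189a2 went from 48.1 to 627 and from 27.6 to 173. Ctps was also the closest to Mt2 (0.965), Arhgef16 to Slc30a1 (0.884) and Ube2d1, a ubiquitin-conjugating enzyme gene, to Slc39a10 (0.964). Within the set, Mt1 and Mt2 had an r of 0.976, Mt1 and Slc39a14 of 0.940, Mt1 and Slc39a10 of -0.829 and Mt1 and Slc30a1 of 0.170. These coefficients reflect the treatment contrast that chose the set as well as the libraries.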

How the data were processed

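RNA-seq was measured in 16 libraries, grouped by the labels. Tools named in the submitters' processing notes are featureCounts, HISAT2 and DESeq2, without versions, with the build GRCm39. No source used here states the strand setting, so reads of overlapping genes on opposite strands cannot be told apart. The authors deposited 1 table whose unit is a signal, reads per gene scaled by each library's size factor. Scaled back, 100% of values were whole within 0.01 read, and those recovered reads served the alternatives alone. Symbols came from GENCODE M21 by Ensembl identifier for 22484 genes. Every pair of libraries within a group differed by more than counting noise, the lowest chi-square per degree of freedom being 6.97.

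Genes that reached 10 in 4 or more libraries (16509) were fitted together with limma 3.58.1 in R 4.3.3 on log2(value + 1), a scale that understates changes of low genes. The fit used group means with the intensity trend, was two-sided, and was adjusted over all genes by Benjamini-Hochberg with a threshold of 0.05. The fit was tested on simulated data. The 29 alternatives changed scaling, filter and pseudocount (0.5, 8), the tool (DESeq2 1.42.0, edgeR 4.0.16), the libraries in the fit, a random block, stroma markers and each library left out. Promoters came from the RefSeq table, and lengths from GENCODE M21.

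The 6 genes, the gene lists and the markers were chosen with earlier results of these data known. Named genes are the 6, Tgfbr2, up to 4 genes per list past 0.05 in a hormone comparison by lowest adjusted p (the 2 with the highest mean where fewer than 2 passed), the genes most correlated with Mt1, Mt2, Slc30a1 and Slc39a10, and up to 5 neighbours on each side of the pair. Slc39a1, Slc39a2, Slc7a11, Txnrd1, Sgk1, Errfi1, Bcl3 and Gclc were named after their values were seen.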

Additional observations from a re-analysis of the deposited data

Results flagged for a closer look

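Among 37 of the genes described, 147 groups of 4 libraries were checked for a lowest or highest library that lay far from the other 3. Chance gives one in about 1 of 20 groups, and 9 groups had one. Among the 6 zinc genes, Mt2 in control E2/MPA was lowest in M9 (735), against 1209 to 1288 in the others. M9 was also the lowest of its group for Mt1 (7850). M9 is stroma-rich as well, with a mean log2 stroma level of 8.93, and the part of stroma was not tested. Slc30a1 in cKO vehicle was highest in M6 (721), against 566 to 592.

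The other groups were of genes outside the set. Slc39a8 in cKO vehicle was lowest in the stroma-rich M8 (3980), against 7681 to 8287. Slc40a1 in control E2/MPA was lowest in the stroma-rich M12 (1708), against 2476 to 2513. Ftl1 in the same group was lowest in the stroma-rich M9 (8053), against 8782 to 8897. Saa3 in cKO E2/MPA was highest in the stroma-rich M16 (12366), against 1203 to 2101. In cKO vehicle, Fkbp5 was highest in the stroma-rich M8 (188), against 89.2 to 95.8, and Sult1a1 in M7 (7.91), against 2.51 to 3.37. Zbtb16 in control vehicle was at 1.13 in M2 and at 0 in the others. The part of stroma in these values was not tested.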

How the results depend on the processing

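The hormone differences of the 6 genes moved by less than 1 replicate SD under all 29 alternatives. Each kept its sign except that of Slc30a1 in control, which ran from -0.047 to 0.131. Genes called for the hormone effect in control numbered 1469, and 484 with only the 2 groups in the fit, 4479 with a random block that joins libraries 8 numbers apart, 2210 without M4, M8, M12 and M16, 4480 with the stroma covariate and 759 (without M10) to 2230 (without M12) with 1 library left out. In cKO there were 692, and 1255 in DESeq2, 3098 with the block, 3193 with the covariate and 362 to 827 with 1 library left out. For genotype under vehicle 0 were called by limma and edgeR, with 984 at an unadjusted p under 0.05. There were 2 with the filter of 50, 14 in DESeq2, 1 with the block and 8 with the covariate. Without M4, M8, M12 and M16 there were 14, and with 1 library left out 0 to 2. Under E2/MPA 1 was called, and 2 with a pseudocount of 8, 185 in DESeq2 and 0 with only the 2 groups. Without M4, M8, M12 and M16 there were 9, with the covariate 570 and with 1 library left out 0 to 10. For the interaction the count was 0 in all of them, with 309 at an unadjusted p under 0.05. Upper-quartile scaling gave 814 higher and 714 lower in control and 374 and 344 in cKO, and quantile normalization 783 and 833 in control, against 890 and 579 and 447 and 245.

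Sign changes were limited to differences near 0, and the cause was not tested. Without M4, M8, M12 and M16, the interaction of Mtf1 was 0.02, the vehicle genotype difference of Slc39a14 -0.008, the hormone difference of Slc40a1 in cKO -0.097 and that of Bbs2 in control 0.008. With the covariate, Slc39a14 under vehicle was -0.035, and in control Slc30a7 was 0.017, Slc40a1 0.086 and Bbs2 0.002. With upper-quartile scaling Slc39a14 under vehicle was -0.002. With 1 library left out, the range was -0.052 to 0.034 for the interaction of Mtf1, -0.018 to 0.143 for Slc39a10 and -0.175 to 0.166 for Slc39a14 under vehicle, -0.073 to 0.048 for Slc30a7, -0.465 to 0.155 for Slc40a1 and -0.093 to 0.066 for Bbs2 in control, and -0.036 to 0.224 for Slc40a1 and -0.154 to 0.002 for Nudt21 in cKO. The labels give no pairing, since the groups share no replicate numbers. The random block joining libraries 8 numbers apart (consensus correlation 0.496) ended no call of a named gene and added calls, which are given beside those genes.

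Depth limits Mt3 under vehicle, where a library held 13 to 57 of its reads.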
